A study of Mus musculus with 3 samples.

Results

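Enzymes that metabolise xenobiotics and odorants were examined in RNA-seq of 3 sorted populations of mouse cells. The set was every row whose gene symbol places it in cytochrome P450 families 1 to 4 (Cyp), the UDP-glucuronosyltransferases (Ugt), the glutathione S-transferases (Gst), the aldehyde dehydrogenases (Aldh), the sulfotransferases (Sult) or the flavin-containing monooxygenases (Fmo). The members were taken by symbol alone, with no use of measured values. They numbered 170 of 23234 genes, namely 83 Cyp, 21 Ugt, 21 Gst, 20 Aldh, 18 Sult and 7 Fmo genes. The 3 libraries came from wild-type C57BL/6J mice aged 6 to 15 weeks that had all been given lipopolysaccharide (LPS, a bacterial endotoxin), 10 µg in 10 µL of PBS, into both nostrils. The double-positive (DP) library held CD45+Ly6G+SiglecF+ cells sorted from the nose 2 days after LPS. The nasal neutrophil library held CD45+Ly6G+SiglecF- cells from the nose 1 day after LPS, and the blood neutrophil library held CD45+Ly6G+SiglecF- cells from peripheral blood, also 1 day after LPS. Each population was 1 library, so that no difference below has a replicate check, an error or a p-value, and the DP library differed from the other libraries in both surface marker and day. No library from mice without LPS was analysed here, and the number of mice behind each library is not given in the sources used here.

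These enzymes work in stages on small foreign molecules and on endogenous lipids, hormones and aldehydes. Cytochromes P450 and flavin-containing monooxygenases introduce an oxygen atom (phase 1), aldehyde dehydrogenases oxidise aldehydes to acids, and the transferases then attach glucuronic acid, glutathione or sulfate (phase 2), which makes the product easier to excrete. The olfactory mucosa is known for high levels of such enzymes in its supporting cells and glands, where they modify inhaled odorants and toxicants, while neutrophils are known for P450 enzymes that inactivate leukotriene B4.

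Levels were the authors' FPKM values (fragments per kilobase of transcript scaled to the mapped fragments of the library). Differences between libraries are given as log2 ratios of FPKM + 1, on which 1 unit is a 2-fold difference, and which understate the difference for low genes. Depth was not used here as a count. From the smallest spacing of the FPKM values it was near 54800000 fragments in DP, 12800000 in nasal and 54400000 in blood neutrophils, and those figures are approximate. At that depth 1 FPKM over 1 kb of transcript stood for about 55, 13 and 54 fragments, so that a level near 0.1 FPKM rested on few fragments, above all in the nasal neutrophils. The DP, nasal and blood libraries had 11294, 10460 and 7706 genes that reached 1 FPKM.

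The sort markers define all 3 libraries as leukocytes, and the list of 15 neutrophil genes summed to 16458 FPKM in DP, 63046 in nasal and 81327 in blood neutrophils. All 15 were at 1 FPKM or more in both nasal libraries and 14 were so in blood. S100a8 was listed at 0 in blood, against 7656 FPKM in DP and 29818 in nasal neutrophils. S100a9 stood at 52238 FPKM in blood. Whether the 0 of S100a8 is an absent transcript or a missing value was not tested, so the blood sum may be too low. Both nasal libraries also held transcripts of the nasal lining. The 11 genes listed for sustentacular (olfactory supporting) cells summed to 2092, 698.7 and 2.07 FPKM in DP, nasal and blood. That list includes the epithelial genes Krt8, Krt18, Epcam and Cdh1, so the sum need not be of supporting cells alone. The 11 gland genes with a row summed to 6874, 4796 and 1.47 FPKM. Lcn11 made up most of the DP gland sum, at 5449, 834.5 and 0.23 FPKM. Over the 10 gland genes with a mean of 1 FPKM or more, the median log2 ratio of DP to nasal neutrophils was 0.02. The gland gene Bpifb9b alone stood at 2401 FPKM in nasal neutrophils but had a listed value of 0 in DP, which may likewise be a missing value. The 16 olfactory neuron genes summed to 2127, 1070 and 5.42 FPKM, and the 13 respiratory epithelium genes to 370.3, 87.1 and 1.10 FPKM. Bpifa1 (DP 272.6, nasal 38.2 FPKM) and Dynlrb2 (DP 69.0, nasal 11.6 FPKM) made up most of the respiratory sum in DP. Of the other respiratory genes with a mean of 1 FPKM or more, Krt15 and Tekt1 were higher in DP. Foxj1 (DP 0.36, nasal 6.04 FPKM), Tppp3 (DP 6.21, nasal 16.8 FPKM) and Krt14 (DP 1.23, nasal 2.85 FPKM) were lower in DP. The order of the respiratory sums is therefore not one of the whole list. In a bulk library, fewer cells of a type and less RNA per cell cannot be told apart.

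Of the 170 members, 69 reached 1 FPKM in DP, 64 did so in nasal neutrophils and 25 in those of the blood. Of all 23234 genes, 11294, 10460 and 7706 did so. Members listed at 0 numbered 47, 58 and 104 in DP, nasal and blood neutrophils, against 4896, 5454 and 8892 of all genes. In all 3 libraries 40 members were listed at 0. The members together took 0.74%, 0.25% and 0.26% of each library's total FPKM (DP, nasal and blood), or 4743, 1556 and 1692 FPKM. A single gene, Cyp4f18, supplied 50.7% of that sum in DP, 24.2% in nasal and 64.7% in blood neutrophils. Without it the member sum was 2337, 1179 and 597 FPKM, highest in DP and lowest in blood.

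**Figure D1:**
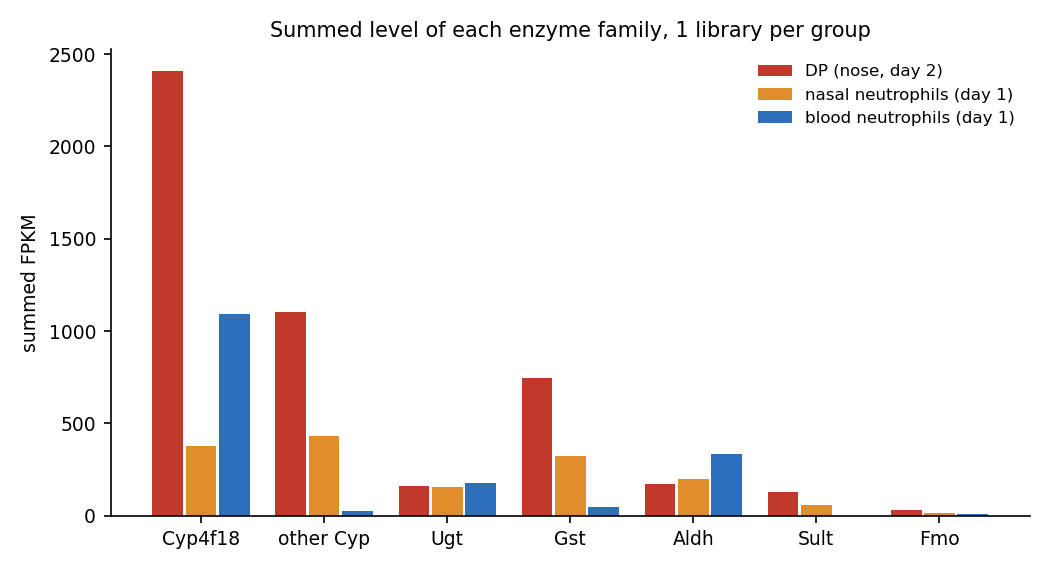
Summed FPKM of the members of each enzyme family in DP, nasal and blood neutrophils, 1 library each, with Cyp4f18 drawn apart from the other Cyp genes. The Cyp genes other than Cyp4f18 went from 27.6 FPKM in blood to 432.1 in nasal neutrophils and 1102 in DP. The Aldh sum was highest in blood, where Aldh3b1 and Aldh2 made up most of it.

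The families did not share one order across the libraries. The Gst genes summed to 743.6 FPKM in DP, 321.2 in nasal and 49.1 in blood neutrophils. The Sult genes summed to 127.3, 55.98 and 0.29 FPKM and the Fmo genes to 31.5, 17.0 and 8.55 FPKM in the same order. In these families, as in the Cyp genes without Cyp4f18, DP had the highest sum and blood the lowest. The Ugt sums lay close together at 162.5, 156.0 and 175.3 FPKM, but came from different genes in nose and blood. The Aldh sum ran the other way, at 169.9 FPKM in DP, 196.8 in nasal and 336.2 in blood neutrophils. Aldh3b1 (195.5 FPKM) and Aldh2 (86.1 FPKM) made up most of the blood sum, so that order is not one of the whole family. Over the 13 Aldh genes with a mean of 1 FPKM or more, the median log2 ratio of DP to blood was 1.90, against 0.95 over all such genes.

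A mean of 1 FPKM or more over the 3 libraries was required before a ratio was read, and 63 members passed (18 Cyp, 5 Ugt, 17 Gst, 13 Aldh, 5 Sult and 5 Fmo), against 10719 genes in all. The other 107 members, among them all 16 Cyp2c and all 10 Cyp2d genes, were too low. The Cyp2c subfamily, large and liver-enriched, summed to 0.34 FPKM in DP, 0.32 in nasal and 0 in blood neutrophils; Cyp2d genes summed to 0.20, 0.88 and 0.07 FPKM. Of the 63 that passed, 51 had their highest level in DP, 3 in nasal and 9 in blood neutrophils. Over all genes tested the shares highest in DP, nasal and blood were 58.7%, 22.3% and 19.0%.

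**Figure D2:**
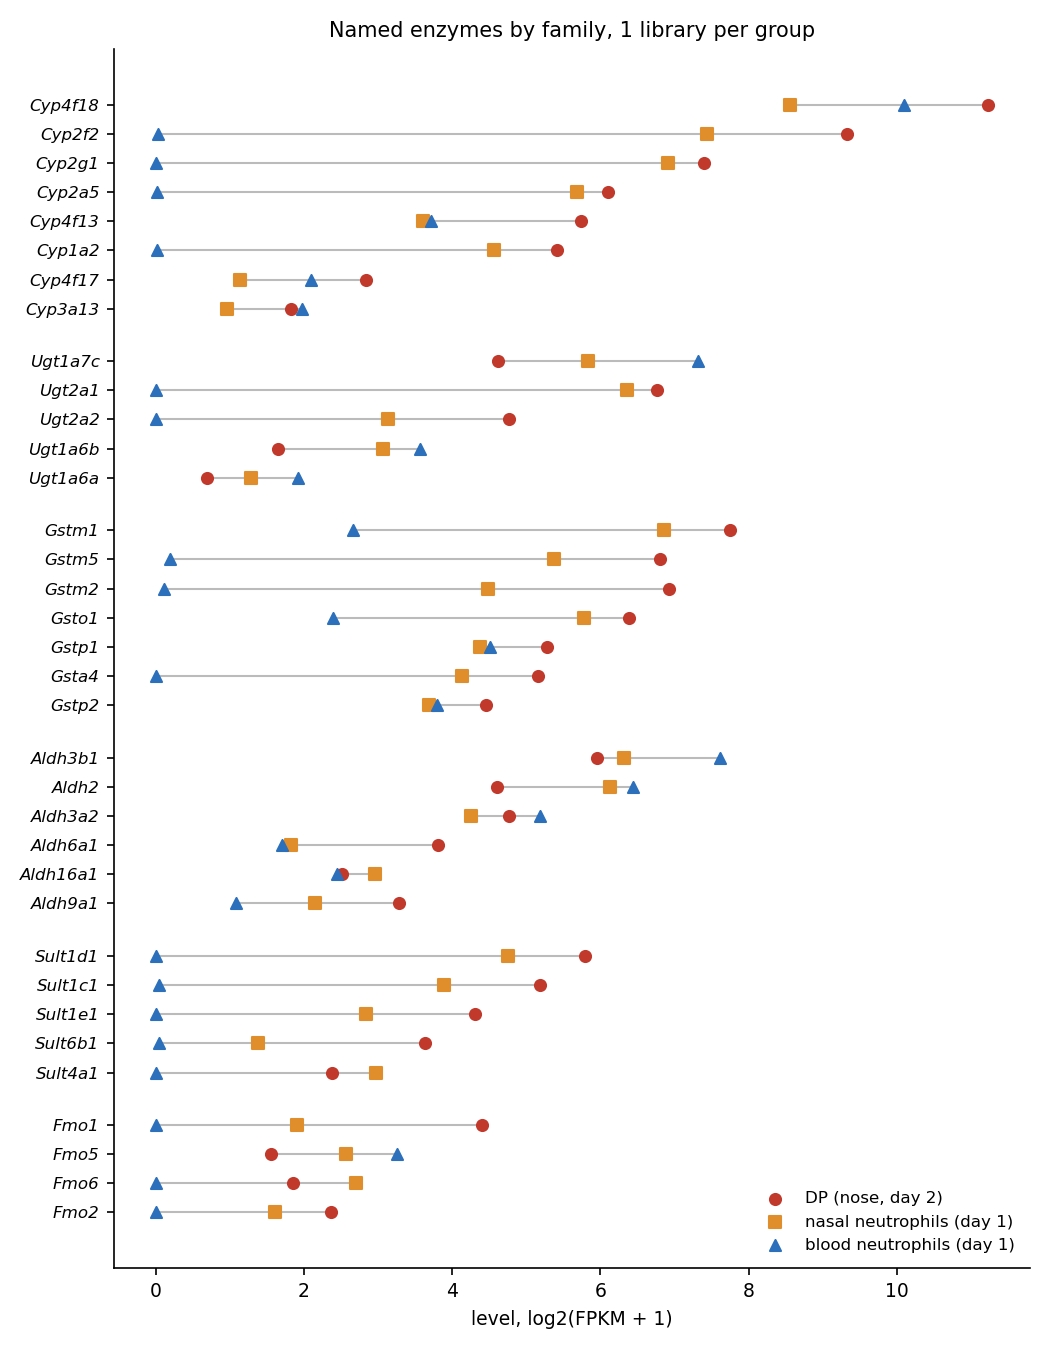
Level of the named members, log2(FPKM + 1), in DP, nasal and blood neutrophils, 1 library each, by family, with a line joining the lowest and the highest library. Cyp2f2, Cyp2g1, Cyp2a5, Cyp1a2, Ugt2a1 and the Sult genes were at or near 0 in blood, while Cyp4f18, Aldh3b1 and Ugt1a7c had their blood triangles well to the right.

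The P450 genes best known from olfactory mucosa were read in both nasal libraries and hardly at all in blood. Cyp2f2, which oxidises naphthalene in airway cells, stood at 644.8 FPKM in DP, 172.7 in nasal and 0.02 in blood neutrophils, where the level amounted to about 2.1 fragments. Cyp2g1, a P450 of olfactory mucosa, had 167.9 FPKM in DP against 120.02 in nasal neutrophils, while the blood value was listed as 0. Cyp2a5, the mouse coumarin hydroxylase, had 67.7, 50.7 and 0.01 FPKM across DP, nasal and blood. Cyp2f2 was thus the gene of this group that differed most between the nasal libraries, with a log2 ratio of DP to nasal neutrophils of 1.89 against 0.48 for Cyp2g1 and 0.41 for Cyp2a5, which centring on the all-gene median turns to 1.32, -0.09 and -0.16. Cyp2a5 and Cyp2a4 are near copies, and 40.8% of the 50-base stretches of Cyp2a5 transcripts also lie in another gene, so its level is uncertain. The 4 Cyp2a genes together summed to 84.2, 61.8 and 0.01 FPKM, the same order.

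Cyp1a2, a P450 of aromatic amines and caffeine that the dioxin receptor Ahr induces, stood at 41.7 FPKM in DP, 22.7 in nasal and 0.01 in blood neutrophils. Its paralog Cyp1a1, the usual readout of Ahr activity, stood at 0.68, 1.23 and 0.01 FPKM and did not pass the filter. Cyp1b1 was lower still, at 0.21, 0.16 and 0.0035 FPKM. Among the epoxygenases of the Cyp2j subfamily, Cyp2j6 stood at 12.6, 4.69 and 0 FPKM and Cyp2j12 at 9.95, 1.92 and 0 FPKM. Cyp2e1, the ethanol-inducible P450, differed from these in having transcripts in all 3 libraries, at 14.7 FPKM in DP, 4.0 in nasal and 4.86 in blood neutrophils. Cyp3a13, the only Cyp3a gene that passed the filter, had its highest level in blood, at 2.55, 0.96 and 2.93 FPKM.

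The P450 of neutrophils itself had a different order from the nasal group. Cyp4f18, which hydroxylates leukotriene B4 in mouse neutrophils, stood at 2406 FPKM in DP, 377 in nasal and 1094 in blood neutrophils. It was the member with the highest level in each library and ranked 24th, 222nd and 85th among all genes. Nasal neutrophils were thus the low library, with a log2 ratio of -1.53 to blood, and DP the high one, with a log2 ratio of 2.67 to nasal neutrophils and 1.14 to blood. On the plain FPKM scale DP was 6.38-fold above nasal neutrophils. Under 5% of its 50-base stretches lay in another gene.

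Other Cyp4f genes repeated part of this order at far lower levels. Cyp4f13 stood at 52.4 FPKM in DP, 11.2 in nasal and 12.1 in blood neutrophils. Cyp4f17 stood at 6.12, 1.2 and 3.26 FPKM, again lowest in nasal neutrophils, and Cyp4f16 at 13.7, 3.93 and 2.26 FPKM. Cyp4f15, in contrast, was near 0 in blood, at 4.65, 2.62 and 0.10 FPKM. Of the other Cyp4 genes, the fatty acid hydroxylase Cyp4v3 stood at 19.3, 7.74 and 0.31 FPKM and Cyp4b1, a P450 of lung and airway, at 9.16, 6.24 and 0.02 FPKM. Of the 9 Cyp4f genes, a subfamily of fatty acid and eicosanoid hydroxylases, 5 passed the filter.

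The flavin-containing monooxygenases, which oxygenate nitrogen and sulfur atoms, fell into genes of the nose and a gene of the blood. Fmo1 had 20.2 FPKM in DP against 2.74 in nasal neutrophils, while the blood value was listed as 0, with a log2 ratio of DP to nasal neutrophils of 2.50. Fmo2, the lung form, had 4.17 FPKM (DP) against 2.04 (nasal neutrophils), with 0 listed in blood. Fmo6 had the opposite order in the nose, with 2.60 FPKM in DP against 5.52 in the nasal neutrophil library; its blood value was also listed as 0. Fmo5 was highest in blood, at 1.93, 4.90 and 8.55 FPKM in the DP, nasal and blood libraries. Of the Fmo genes named here, Fmo1 was the only gene above 10 FPKM in any library.

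Several aldehyde dehydrogenases had their highest level in blood. Aldh3b1, which acts on aldehydes from lipid oxidation, stood at 60.8 FPKM in DP, 78.8 in nasal and 195.5 in blood neutrophils. Aldh2, the mitochondrial enzyme of acetaldehyde, stood at 23.3, 69.3 and 86.1 FPKM, so that DP was the low library with a log2 ratio of -1.53 to nasal neutrophils. Aldh3a2, the fatty aldehyde dehydrogenase, stood at 26.1, 18.04 and 35.3 FPKM, with a log2 ratio of nasal to blood neutrophils of -0.93. Other members of the family were highest in DP. Aldh6a1, an enzyme of valine breakdown, stood at 13.0, 2.56 and 2.24 FPKM, and Aldh9a1 at 8.77, 3.43 and 1.11 FPKM. Aldh1a1, which makes retinoic acid, was low at 3.62, 1.32 and 0.24 FPKM, and Aldh3a1, an enzyme of cornea and airway, stood at 3.74, 1.17 and 0 FPKM.

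The glucuronosyltransferases divided by gene cluster. Ugt2a1, the olfactory glucuronosyltransferase, had 107.4 FPKM in DP against 81.3 in nasal neutrophils, while the blood value was listed as 0. Ugt2a2 stood at 26.1 and 7.77 FPKM and was also listed at 0 in blood. These overlapping genes share most of their sequence (97.0% of the 50-base stretches of Ugt2a1 lie in another gene, 68.4% in Ugt2a2), so the split between them is uncertain, and their sum with Ugt2a3 was 134.6, 89.7 and 0 FPKM. Ugt1a7c, which conjugates phenols, had the reverse order, at 23.6 FPKM in DP, 56.0 in nasal and 158.6 in blood neutrophils. Ugt1a6b stood at 2.13, 7.34 and 10.9 FPKM and Ugt1a6a at 0.61, 1.45 and 2.77 FPKM. The Ugt1a genes use separate first exons and shared later exons, and 69.3% of the 50-base stretches of Ugt1a7c lie in another gene. The sum over all 8 Ugt1a genes, which depends less on that split, was 27.04, 66.0 and 175.2 FPKM.

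Among the glutathione S-transferases, the mu, alpha, theta and omega classes were higher in the nasal libraries than in blood, while the pi class was present in blood at similar levels. Gstm1 stood at 214.8 FPKM in DP, 115.2 in nasal and 5.35 in blood neutrophils. Gstm2 stood at 120.2, 21.3 and 0.08 FPKM and Gstm5 at 110.3, 40.3 and 0.14 FPKM. The mu class summed to 478.3, 193.05 and 8.03 FPKM, most of the family's sum in the nasal libraries, and Gstm2 had the largest log2 ratio of DP to nasal neutrophils among the Gst genes tested, 2.44. Gsta4, the alpha-class enzyme that conjugates hydroxynonenal, had 34.6 FPKM in DP against 16.6 in nasal neutrophils, while the blood value was listed as 0. Gsta3 (35.9 and 10.9 FPKM) and the theta-class gene Gstt1 (9.04 and 2.47 FPKM) were likewise listed at 0 in blood. Gsto1, the omega-class thioltransferase, stood at 82.5, 54.0 and 4.27 FPKM. The pi-class gene Gstp1 stood at 38.0, 19.8 and 21.7 FPKM and its neighbour Gstp2 at 20.9, 11.8 and 12.9 FPKM. As 62.3% of the 50-base stretches of Gstp1 lie in Gstp2, the better value is their sum, 58.9, 31.6 and 34.7 FPKM. All 17 Gst genes tested had a log2 ratio of DP to nasal neutrophils above the all-gene median of 0.57.

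The sulfotransferases were near 0 in blood. Sult1d1, which sulfates catecholamines, had 54.3 FPKM in DP against 25.9 in nasal neutrophils, while the blood value was listed as 0. Sult1c1, a phenol sulfotransferase, stood at 35.4, 13.9 and 0.03 FPKM, and Sult1e1, the oestrogen sulfotransferase, at 18.8, 6.12 and 0 FPKM. Sult6b1 stood at 11.5, 1.61 and 0.03 FPKM, a log2 ratio of DP to nasal neutrophils of 2.26 that rested on about 42.3 fragments in the nasal library. Sult4a1, a sulfotransferase of neurons, was the exception in order, with 4.21 FPKM in DP against 6.81 in the nasal neutrophil library; its blood value was listed as 0.

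The DP and nasal neutrophil libraries were set against each other to ask how the SiglecF+ cells differ from the SiglecF- cells of the same tissue, with the day of collection differing as well. Of the 63 members tested, 5 were at least 4-fold higher in DP (Cyp4f13, Cyp4f18, Fmo1, Gstm2 and Sult6b1) and 0 were at least 4-fold lower, with 29 within 2-fold. That share of members higher, 7.94%, was near the background of 8.42% over all 10719 genes tested, while the background for lower was 3.62%. When only the genes at 1 FPKM or more in blood were read, 2 of 25 members were higher and 0 lower, against 8.5% and 3.69% of all such genes. The median log2 ratio was 0.95 over the members tested and 0.57 over all genes tested, and 45 of the 63 lay above the latter. With no filter the medians were 0.02 over all 170 members and 0.02 over all genes, so the difference of 0.38 rests on the genes that passed the filter. The 10 members with a ratio below 0 were Aldh16a1, Aldh2, Aldh3b1, Aldh4a1, Fmo5, Fmo6, Sult4a1, Ugt1a6a, Ugt1a6b and Ugt1a7c. By family the median log2 ratio was 1.2 for Cyp, 1.07 for Gst, 1.29 for Sult, 0.72 for Aldh, 0.34 for Fmo and -0.60 for Ugt genes. Since genes as a whole sat higher in DP, ratios centred on the all-gene median leave 1 member at least 4-fold higher, Cyp4f18, and 1 at least 4-fold lower, Aldh2. The split of all genes then moves from 903 higher and 388 lower to 360 higher and 773 lower.

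**Figure D3:**
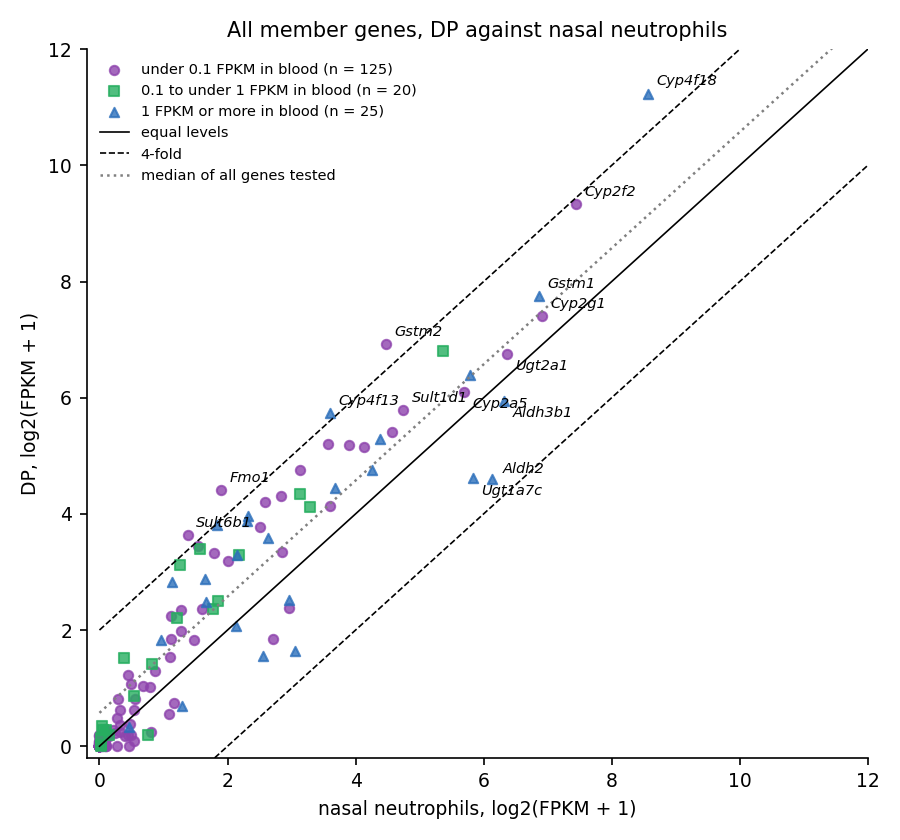
Level in DP against level in nasal neutrophils for all 170 members, log2(FPKM + 1) on both axes, 1 library each, with colour and shape for the level in blood, lines at equality and at 4-fold and a dotted line at the median ratio of all genes tested. Cyp4f18 is the highest point and lies above the upper 4-fold line, and no member lies below the lower one.

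Nasal and blood neutrophils share the sort gate and the day and differ in the place of collection. In this comparison 24 of the 63 members tested (38.1%) were at least 4-fold higher in nasal neutrophils, against a background of 13.1% of all genes tested. None was at least 4-fold lower, against 3.23%. Of the 24, 13 were listed at 0 in blood, so the ratios of those 13 have no defined size. Among all 1408 genes that much higher, 320 were listed at 0 in blood. The 24 members comprised 9 Cyp, 8 Gst, 4 Sult, 2 Ugt and 1 Fmo genes and no Aldh gene. The largest ratios among genes with a value above 0 in blood were 7.41 for Cyp2f2, 5.67 for Cyp2a5 and 5.17 for Gstm5. The median log2 ratio was 1.43 over the members and 0.41 over all genes tested. A mean filter lets a member pass through its nasal level alone. When members were instead required to reach 1 FPKM in DP, the library outside the comparison, 24 of 69 were at least 4-fold higher against 11.7% of all genes, and 0 lower against 2.52%. DP is a nasal library as well, so members still passed through a nasal level and that filter does not remove the limit. With no filter, the median over all 170 members was 0.01 against 0.06 over all genes, because most members were near 0 in both libraries.

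DP and blood neutrophils differed in place, marker and day at once. Here 39 of the 63 members tested (61.9%) were at least 4-fold higher in DP, against a background of 24% of all genes tested. The single member at least 4-fold lower was Ugt1a7c, with a log2 ratio of -2.70, against a background of 3.57%. Of the 39 members, 18 were listed at 0 in blood, against 559 of all 2577 genes that much higher. When members were required to reach 1 FPKM in nasal neutrophils, 39 of 64 were higher and 1 lower, against 22.5% and 3.03% of all genes. As nasal neutrophils are also from the nose, members could still pass through a nasal level. The members added to those of the nasal comparison included 5 Aldh genes, such as Aldh6a1 with a log2 ratio of 2.11 and Aldh9a1 with 2.21, and Cyp4f13 with 2.03. When the ratios were centred on the all-gene median of 0.95, the counts were 27 higher and 6 lower, and those of all genes 1116 and 971. The 3 comparisons share libraries and are not independent of each other.

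Members were divided by their level in blood, the library outside the DP against nasal comparison. In blood neutrophils 125 of the 170 members (73.5%) were under 0.1 FPKM, against 50.8% of all genes, and 25 (14.7%) were at 1 FPKM or more, against 33.2%. Of the members under 0.1 FPKM in blood, 30 were at 1 FPKM or more in both nasal libraries. Their log2 ratios of DP to nasal neutrophils ran from -0.86 to 2.50 with a median of 1.06, and the 1111 genes of that kind had a median of 0.38. Among those 30 members the DP level was 4-fold or more above the nasal one for 3 and below it for 0, against 54 and 13 of the 1111 genes. The 9 members at 10 FPKM or more in blood, all at 1 FPKM or more in both nasal libraries, had ratios from -1.53 to 2.67 with a median of 0.51, and all genes at that level had a median of 0.59. The blood-expressed members therefore held both extremes, Aldh2 at the low end and Cyp4f18 at the high end.

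**Figure D4:**
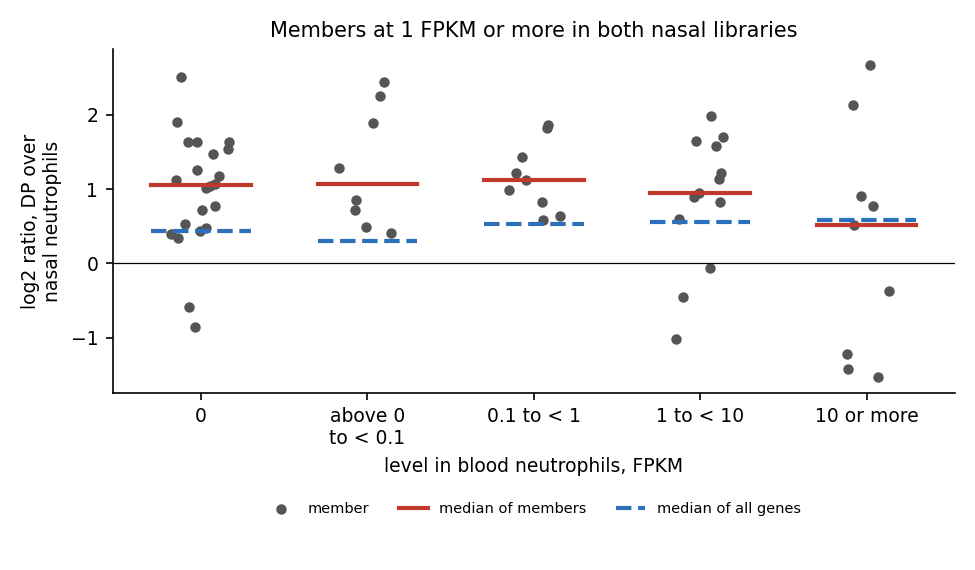
Log2 ratio of DP to nasal neutrophils, as log2(FPKM + 1), for members at 1 FPKM or more in both nasal libraries, grouped by FPKM in blood neutrophils, 1 point per member (spread sideways for sight only), with the medians of members and of all genes of each group. The median of members listed at 0 in blood was 1.06 against 0.44 for all such genes, and the group at 10 FPKM or more held both Aldh2 at -1.53 and Cyp4f18 at 2.67.

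Most members lie in gene clusters, where neighbours share ancestry and often tissue. In the RefSeq gene order (GRCm38.p6), 166 members could be placed, and 119 lay in 15 clusters of at least 3 members with no more than 5 other genes between neighbours. For comparison, 11294, 10460 and 7706 of all 23234 genes were at 1 FPKM or more in DP, nasal and blood neutrophils. The cluster of Cyp2a, Cyp2b, Cyp2f, Cyp2g, Cyp2s and Cyp2t genes had 6 of its 13 members at 1 FPKM or more in DP, 5 in nasal and 0 in blood neutrophils. The cluster of Ugt2 and Sult1 genes had 6, 4 and 0 of 13, and the Fmo cluster 4, 4 and 0 of 5. The Gstm cluster had 7, 6 and 2 of 7. The Ugt1a cluster went the other way, with 2, 3 and 4 of 8, and its 3 genes that passed the filter were all highest in blood. The 4 Aldh3b and Gstp genes of a further cluster were all at 1 FPKM or more in every library. The Cyp2d, Cyp3a and Sult2a clusters, with 8, 8 and 7 members, had none at 1 FPKM or more in any library. Cyp4f18 lay apart from the cluster of the other Cyp4f genes, which had 4, 4 and 3 of 7.

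**Figure D5:**
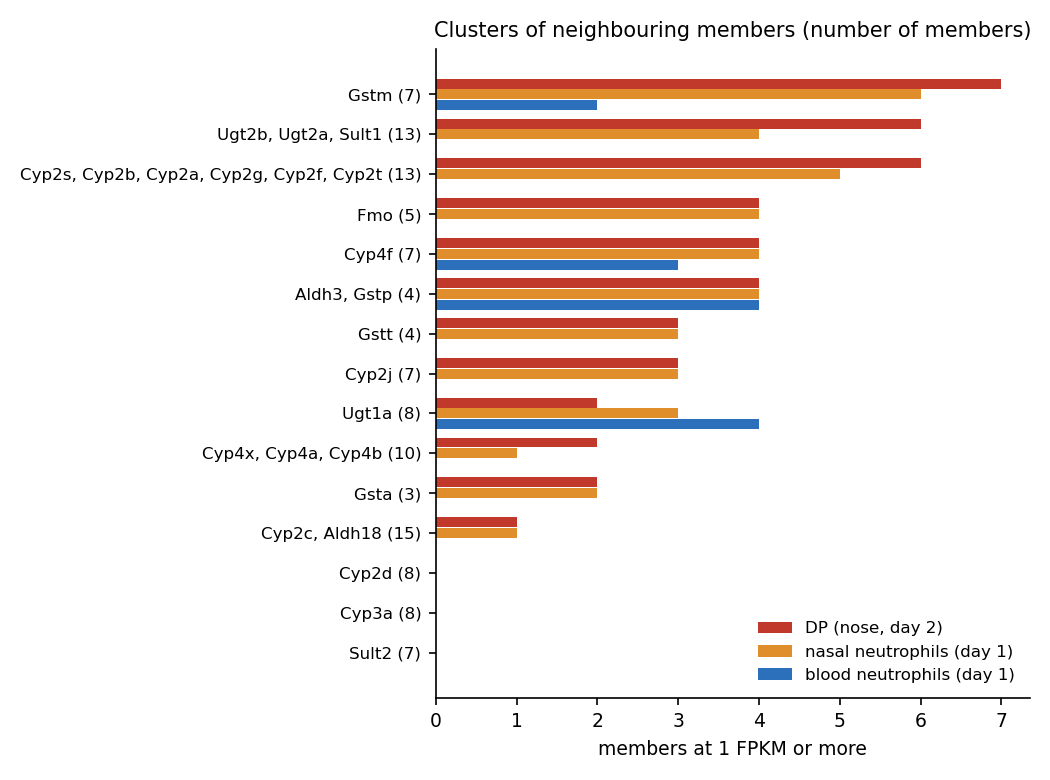
Number of members at 1 FPKM or more in DP, nasal and blood neutrophils for each gene cluster, 1 library each, with the cluster's number of members in brackets. The clusters of Cyp2a to Cyp2t, of Ugt2 and Sult1 and of Fmo genes had 0 such members in blood, and the Ugt1a cluster had its largest number there.

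The 250 bases before the start of each member were read from RefSeq (GRCm38.p6) to show what members with one expression order have in front of them, and 51 of the 63 members tested had an entry. Letters were searched on both strands for a core of C/EBP factors, TTGCNNAA (TTNNGCAA on the other strand), for the antioxidant response core that Nrf2 (Nfe2l2) binds, TGACNNNGC, and for the core that Ahr binds, GCGTG. The motifs were chosen after the values had been seen. Of the 24 members with an entry that were under 0.1 FPKM in blood, 9 (37.5%) held TTGCNNAA, against 10.8% of all 27025 genes. They were Cyp2a4, Cyp2a5, Cyp2b10, Cyp2j9, Fmo2, Gsta3, Gstm2, Gstt1 and Ugt2a2, of which Cyp2a4 and Cyp2a5 are near copies. None of the 20 members at 1 FPKM or more in blood held it, and of all 51 tested members with an entry 10 (19.6%) did. TGACNNNGC was found in 2 of the 24, in 2 of the 20 (Aldh9a1 and Cyp4f18) and in 11.5% of all genes, and GCGTG in 5 of the 24, 6 of the 20 and 30.9% of all genes. The shares of all genes cover genes at any level, so they are no matched background for members near 0 in blood that passed the filter through nasal levels. A match is a description of letters and shows no binding. Shown 5′ to 3′ on the strand of the gene are Cyp, Gst and Ugt members near 0 in blood, picked from the 9 that held TTGCNNAA. Capitals mark TTGCNNAA (in Gsta3 its other-strand form TTNNGCAA, and TGACNNNGC). Cyp4f18 is shown for contrast, with the capitals marking TGACNNNGC.
Cyp2a5 (chr7:26835089-26835338, plus strand): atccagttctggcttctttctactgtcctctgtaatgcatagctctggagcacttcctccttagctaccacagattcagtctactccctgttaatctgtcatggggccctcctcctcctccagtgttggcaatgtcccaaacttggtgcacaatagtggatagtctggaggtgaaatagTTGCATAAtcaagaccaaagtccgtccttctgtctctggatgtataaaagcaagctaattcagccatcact
Gstm2 (chr3:107986421-107986670, minus strand): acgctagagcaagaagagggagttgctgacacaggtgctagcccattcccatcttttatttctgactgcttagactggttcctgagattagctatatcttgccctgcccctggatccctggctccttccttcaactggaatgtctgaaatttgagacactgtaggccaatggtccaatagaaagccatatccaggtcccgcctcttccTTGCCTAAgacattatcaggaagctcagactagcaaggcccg
Gstt1 (chr10:75797732-75797981, minus strand): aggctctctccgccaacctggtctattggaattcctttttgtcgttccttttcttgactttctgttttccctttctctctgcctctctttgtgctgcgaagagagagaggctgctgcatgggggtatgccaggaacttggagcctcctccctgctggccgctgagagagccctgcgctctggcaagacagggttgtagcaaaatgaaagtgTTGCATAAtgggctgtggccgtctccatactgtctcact
Ugt2a2 (chr5:87482259-87482508, minus strand): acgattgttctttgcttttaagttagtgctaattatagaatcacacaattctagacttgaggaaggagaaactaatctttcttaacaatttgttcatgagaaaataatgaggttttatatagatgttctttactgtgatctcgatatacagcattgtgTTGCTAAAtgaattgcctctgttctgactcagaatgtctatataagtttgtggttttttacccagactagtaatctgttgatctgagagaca
Gsta3 (chr1:21240335-21240584, plus strand): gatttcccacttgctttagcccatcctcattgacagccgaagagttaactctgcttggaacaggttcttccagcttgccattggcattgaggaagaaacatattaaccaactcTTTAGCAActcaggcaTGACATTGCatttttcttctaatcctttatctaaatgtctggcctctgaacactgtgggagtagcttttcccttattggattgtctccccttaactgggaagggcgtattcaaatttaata
Cyp4f18 (chr8:72009627-72009876, minus strand): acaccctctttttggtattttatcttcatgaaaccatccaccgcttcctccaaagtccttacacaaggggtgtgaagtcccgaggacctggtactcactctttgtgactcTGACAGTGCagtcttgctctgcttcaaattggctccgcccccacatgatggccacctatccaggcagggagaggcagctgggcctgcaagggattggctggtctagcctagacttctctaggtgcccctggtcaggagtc

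The TTGCNNAA match, on either strand, began 71 bases before the start in Cyp2a5, 42 in Gstm2, 39 in Gstt1, 92 in Ugt2a2 and 137 in Gsta3. The TGACNNNGC match of Gsta3 began 121 bases and that of Cyp4f18 140 bases before the start. The factors' own transcripts were read in the same libraries, and no link between a factor's level and its letters was tested. Cebpb, a C/EBP factor of myeloid and epithelial cells, stood at 156.1 FPKM in DP, 207.7 in nasal and 2.71 in blood neutrophils. Nfe2l2 stood at 130.6, 180.4 and 144.3 FPKM. Ahr stood at 8.46, 2.61 and 0.96 FPKM, lowest in blood, and Cebpa, another C/EBP gene, at 0.61, 1.2 and 0.36 FPKM, under the filter. Of the 19 regulators listed, 11 passed the filter, and in DP against nasal neutrophils 0 were higher by 4-fold or more and 2 were lower. The shares of all genes tested were 8.42% and 3.62%. The 2 lower regulators were the small Maf genes Mafg (4.16 and 36.6 FPKM) and Mafk (6.11 and 39.7 FPKM). The pregnane X receptor gene Nr1i2 and Hnf4a, regulators of these enzymes in liver, were listed at 0 in all 3 libraries.

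The partners on which the enzymes depend had mixed orders. Por, the reductase that passes electrons to microsomal P450s, stood at 71.8 FPKM in DP, 155.0 in nasal and 115.7 in blood neutrophils. Alas1, the first enzyme of haem synthesis, stood at 202.7, 192.4 and 86.5 FPKM and Cyb5r3, the cytochrome b5 reductase, at 97.6, 32.4 and 27.5 FPKM, both highest in DP and lowest in blood. Cyb5b (21.8, 10.5 and 7.59 FPKM) and Pgrmc1 (63.3, 57.2 and 15.97 FPKM) had that order as well. Hmox1, which degrades haem, was the gene with the largest difference among the 6 oxidation partners with a row, at 12.7, 446.6 and 40.8 FPKM, a log2 ratio of DP to nasal neutrophils of -5.03. Among cofactor genes, G6pdx and Pgd, which make NADPH, were lowest in DP, at 20.6, 121.9 and 171.6 FPKM and at 49.3, 171.6 and 346.0 FPKM. Ugdh, which makes UDP-glucuronic acid, went the other way, at 68.8, 24.3 and 9.34 FPKM. Gsr, which regenerates glutathione, stood at 354.5, 365.5 and 594.1 FPKM. Of the 11 cofactor genes tested, 0 had a DP level 4-fold or more above the nasal neutrophil level and 1, G6pdx, had one as far below it. For all genes tested those shares were 8.42% and 3.62%, so counts this small are near the background.

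Enzymes of the same pathway outside the 6 families gave both orders. Of 25 other phase 1 genes tested, 4 had a DP level 4-fold or more above the nasal neutrophil level and 2 had one as far below it. The shares of all genes tested were 8.42% and 3.62%. The median log2 ratio of the 25 was 1.22. Cbr2, a carbonyl reductase that is also on the sustentacular list, stood at 803.2 FPKM in DP, 161.8 in nasal and 0.10 in blood neutrophils. The epoxide hydrolase Ephx1 stood at 125.4, 14.3 and 0.77 FPKM and the alcohol dehydrogenase Adh1 at 84.0, 9.74 and 0.09 FPKM. Against nasal neutrophils the DP levels of Ephx1 and Adh1 had log2 ratios of 3.05 and 2.99, above that of every member. Of 10 other conjugating genes tested, 0 were at least 4-fold higher and 1, Mgst2, was at least 4-fold lower, against the same shares of all genes. The membrane-bound transferase Mgst1 stood at 213.4, 340.9 and 743.9 FPKM, the order of Aldh3b1 and Ugt1a7c, and Mgst3 at 130.7, 52.4 and 0.71 FPKM. Of the 5 efflux transporters tested, 0 passed 4-fold in either direction between DP and nasal neutrophils, too few genes to set against those shares. Abcc1, which exports glutathione conjugates, stood at 10.6, 19.6 and 0.18 FPKM.

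Markers of nasal lining cells were also higher in the nasal libraries than in blood. Of the 33 members listed for nasal mucosa, 29 passed the filter, and 19 of those were at least 4-fold higher in nasal than in blood neutrophils, with 0 lower, against 13.1% and 3.23% of all genes tested. As many of these members passed the filter through their nasal levels, that share is no measure of the list. Their sum was 1818 FPKM in DP, 856.2 in nasal and 126.1 in blood neutrophils, where Aldh2 (86.1 FPKM) and Gstp1 (21.7 FPKM) made up most of it. Genes of the marker lists likewise passed the filter mainly through their nasal levels, so the counts that follow are no measure of those lists either. Of the sustentacular list, 8 of 10 genes tested were at least 4-fold higher in nasal than in blood neutrophils, and Sox2, Epcam and Reg3g were among those listed at 0 in blood. Of the gland list, 9 of 10 genes tested were so, and Sox9, Bpifb4, Dmbt1, Muc5b and Odam were listed at 0 in blood. The respiratory list gave 6 of 7, with Foxj1, Krt5, Krt15, Trp63, Tekt1 and Muc5ac listed at 0 in blood and Scgb1a1 in all 3 libraries, while Muc5ac was also near 0 in DP (0.0040 FPKM) and nasal neutrophils (0.017 FPKM), and the olfactory neuron list 16 of 16, with Omp, Gng13, Cnga2, Cnga4, Gap43, Ebf2, Lhx2 and Rtp1 listed at 0. Between DP and nasal neutrophils the median log2 ratio was 1.01 for sustentacular, 1.13 for olfactory neuron, 0.47 for respiratory and 0.02 for gland genes, beside 0.91 for the nasal mucosa members. The part of nasal lining transcripts in the levels of these members was not tested.

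The 18 members listed for leukocytes, which Cyp4f18 leads, included several genes read in all 3 libraries. Their sum was 2708 FPKM in DP, 649.1 in nasal and 1453 in blood neutrophils, most of it Cyp4f18 (2406, 377 and 1094 FPKM). Gsto1, Gstp1, Aldh2, Sult1a1 and Cyp2s1 are on both this list and the nasal mucosa list. Of the 14 tested, 1 was at least 4-fold higher in DP than in nasal neutrophils, with 0 lower, against 8.42% and 3.62% of all genes tested. The neutrophil list, in contrast, had a median log2 ratio of -2.31 in that comparison, with 8 of its 15 genes at least 4-fold lower in DP. The 10 eosinophil genes summed to 179.0, 26.8 and 25.6 FPKM, with most of the DP sum in Siglec5 (167.8, 9.92 and 18.7 FPKM), the gene of the SiglecF protein on which DP cells were sorted, and with the granule genes Epx and Prg3 listed at 0 in all 3 libraries, and the 11 macrophage genes with a row to 758.5, 1031 and 550.5 FPKM, with C1qa, C1qb, C1qc and Mrc1 listed at 0 in blood. The 12 stromal and endothelial genes summed to 33.9, 28.4 and 5.95 FPKM. The 9 mast cell genes summed to 518.6, 1462 and 983.2 FPKM, mostly Hdc, with Tpsab1, Mcpt4 and Fcer1a listed at 0 in all 3 libraries. The part of other leukocytes in the level of Cyp4f18 was not tested.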

How the data were processed

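The deposited values were FPKM per gene as the authors made them, 1 library per population. Per the submitters' processing notes, TopHat 2.0.8, Bowtie 2.1.0 and Cufflinks 2.1.1 were used with the mm9 build. Per the labels' protocols, RNA came from TRIzol LS lysates, and a NEBNext low-input kit gave the libraries. Values below 1e-06 FPKM were set to 0. Ratios were taken on log2(FPKM + 1) in Python 3.11.15 with pandas 2.3.3 and NumPy 2.4.6, for genes with a mean of 1 FPKM or more over the 3 libraries. A 4-fold difference was the threshold, read against its share among all genes tested. The script was checked on simulated data. Depth came from the smallest spacing of FPKM values in single-transcript genes. Sharing of 50-base stretches used annotated mouse transcripts, and neighbours and promoters RefSeq (GRCm38.p6), for names and sequence only. Members given with values were named by rule: in each family the 6 tested members with the highest mean FPKM, in each comparison the 6 highest and 6 lowest ratios, and every member at 10 FPKM or more in blood; 1 such member is not reported here. The values of Cyp1a1, Cyp1b1, Cyp2e1, Cyp2j6, Cyp2j12, Cyp4b1, Cyp4f15, Cyp4f16, Cyp4v3, Aldh1a1, Aldh3a1, Gsta3 and Gstt1 were added after they had been seen. The members, gene lists and comparisons were chosen with earlier results of these data known. Alternatives varied the pseudocount, filter, scaling and threshold.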

Additional observations from a re-analysis of the deposited data

How the results depend on the processing

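With 1 library per population and low values resting on few fragments, small differences could not be read, and the nasal neutrophil library limited the low genes. Of the 5 members at least 4-fold higher in DP than in nasal neutrophils, Cyp4f18 alone stayed past 4-fold under upper-quartile scaling and centring on the all-gene median. That count was 10 at a pseudocount of 0.1 (13% of all genes), 2 at a pseudocount of 5 (4.11%), 8 after rescaling to a common sum (9.49%), 1 under upper-quartile scaling (3.27%), 1 after centring (3.36%), 30 at a 2-fold threshold (33.6%) and 2 of 25 members at 1 FPKM or more in blood (8.5%). The members' median minus the all-gene median, 0.38, became 0.0024 with no filter and 0.23 at a mean of 5 FPKM or more. The lower count of 0 became 1 under upper-quartile scaling, 1 after centring and 4 at 2-fold. For nasal against blood neutrophils, the higher count of 24 of 63 became 40 and 11 at pseudocounts of 0.1 and 5 (26.9% and 4.38% of all genes). It became 41 at 2-fold (33.5%), 30 after rescaling to a common sum (18.6%) and 11 of 41 without members listed at 0 (11.1%). The lower count of 0 became 4 at 2-fold. The median difference, 1.02, became 3.15 and 0.28 at pseudocounts of 0.1 and 5, -0.056 with no filter and 2.61 at a mean of 5 FPKM or more. For DP against blood neutrophils, the higher count of 39 of 63 became 47 and 19 at pseudocounts of 0.1 and 5 (35.9% and 8.78%). It became 45 after rescaling to a common sum (29.9%), 49 at 2-fold (48.6%), 31 under upper-quartile scaling (14.9%) and 27 after centring (10.4%). At a mean of 5 FPKM it was 25 of 37 members (26.1%), and without members listed at 0 it was 21 of 41 (20.5%). The lower count of 1 became 4 at a pseudocount of 0.1, 5 under upper-quartile scaling, 6 after centring, 6 at 2-fold and 0 without members that share sequence. The median difference, 1.41, became 3.53 and 0.79 at pseudocounts of 0.1 and 5, -0.081 with no filter and 3.13 at a mean of 5 FPKM. The reversal with no filter came with the 107 members that did not pass it. Upper-quartile scaling moved the all-gene median by -0.54, -0.13 and -0.66 in the 3 comparisons. Of 108 ratios of named members, 11 changed sign under upper-quartile scaling or centring, none of them past 4-fold (DP against nasal neutrophils for Cyp2a5, Cyp2g1, Ugt2a1, Aldh3a2 and Gsto1 among them), and 14 passed below 4-fold at a pseudocount of 5. Leaving out shared-sequence members and the filter on the library outside the comparison were chosen after seeing the data. No paired analysis was possible because each group had 1 library.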
